A study of Rattus norvegicus with 24 samples.

Results

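The genes described here are 38 genes of DNA replication in INS-1 cells, a rat insulinoma line that makes and secretes insulin. They were listed by symbol for their part in origin licensing, the replication fork and nucleotide supply, with earlier results of these data known. Counts over these genes are therefore not an independent check. All 38 had a mean of at least 10 normalised reads in each of 6 groups, as did 12294 of the 26404 gene identifiers measured. The groups were BMS-21 at 1 µM, GLP-1 at 100 nM and Control (DMSO vehicle), each sampled 6 h and 1 h after treatment, with 4 libraries a group. GLP-1 is the incretin hormone that raises glucose-stimulated insulin secretion, and BMS-21 is named in the labels only by its code. All 6 groups shared the same handling, which was a preincubation of 90 min in 3 mM glucose followed by fresh medium with 11 mM glucose and the treatment. The 6 h and 1 h samples therefore differ both in exposure to the agent or vehicle and in time since the change of medium and glucose, and in Control cells these cannot be told apart. All libraries come from 1 immortal, dividing line, and the labels do not say whether the libraries of a group came from separate cultures, so the p-values measure the spread between these libraries, which may be technical.

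Replication starts in G1, when the origin recognition complex (Orc1 and Orc6 among its subunits), Cdc6 and Cdt1 load the MCM helicase onto DNA. At the start of S phase, cyclin E with its kinase, Mcm10, Cdc45 and the GINS complex turn the loaded helicase into a moving fork. Polymerase alpha with primase lays primers, replication factor C loads the sliding clamp PCNA, polymerases delta and epsilon copy the strands, RPA coats single-stranded DNA, and Fen1 and Lig1 join the lagging-strand fragments. Ribonucleotide reductase and thymidylate synthase supply the nucleotides. Many of these genes are known targets of E2F transcription factors and peak in abundance around the G1/S transition.

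Levels are given as CPM, reads scaled to a common library size, after TMM scaling of the 24 libraries together, computed from whole reads that were recovered from the authors' normalised values. Values after ± are standard deviations over 4 libraries for a level and standard errors for a log2 fold change. A gene is said to have risen or fallen only where its Benjamini-Hochberg adjusted p, over all genes tested, was under 0.05. The libraries held 10667350 to 13148970 reads and detected 15899 to 16223 genes, and a count of 3 reads corresponded to 0.228 to 0.281 CPM. Counting precision was lowest for Orc1, with a mean of 87.8 reads per library with BMS-21 at 6 h, and highest for Rrm1, with 4049.5 in the same libraries. Beta-cell markers were abundant in every library (Ins1 8578 to 11688 CPM, Ins2 1146 to 1824 CPM). Of the defining markers of other islet, acinar, duct, stromal and blood cells, Irx2 and Cela1 were at 0 in every library, while Sst, Hhex, Ppy, Cpa1, Prss1, Ptf1a, Krt19, Pdgfrb, Cdh5 and Ptprc did not exceed 0.243 CPM. Krt7 was the most abundant of them at 46.0 to 85.8 CPM. Same-numbered libraries of different groups deviated together, and replicates 1 and 2 stood apart from replicates 3 and 4 in every group, so results within each pair of replicates are given beside the pooled ones. The adjusted p from a fit with the replicate number as a block is given for each gene whose call it changed, and in each of these cases a gene that had not passed then passed. RNA was measured from whole wells, in which fewer cells passing through S phase and less RNA per cell cannot be told apart.

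After 6 h with either agent, much of the fork machinery was modestly lower than in Control cells. With BMS-21, 15 of 38 genes fell and 0 rose (39.5% and 0%), against 16.8% of all genes tested that fell and 16.8% that rose. With GLP-1, 14 fell and 1 rose (36.8% and 2.63%), against 15.6% of all genes that fell and 16.2% that rose. The genes that fell included MCM helicase subunits, GINS subunits, the clamp gene Pcna, the clamp loader gene Rfc1, the single-strand binding genes Rpa1 and Rpa2, and the thymidylate synthase gene Tyms. The decreases were small, the largest being 22.2% for Gins1 with BMS-21 and 18.6% for Tyms with GLP-1. The median log2 fold change over the 38 genes was -0.13 with BMS-21 and -0.11 with GLP-1, while the median over all genes was within 0.002 of 0 in both. Values were negative for 35 of 38 genes with BMS-21 and for 34 of 38 with GLP-1. All 4 treated libraries lay below all 4 Control libraries for 13 of 38 genes with BMS-21 (15.6% of all genes) and for 13 of 38 with GLP-1 (15.4% of all genes). The 2 comparisons use the same 4 Control libraries, so the values of the agents stand side by side below and are not independent of each other.

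The fits were limma with an intensity trend on log2(normalised read count + 1), which slightly understates the change of low genes. Within replicates 1 and 2, 11 genes fell and 2 rose with BMS-21, and 10 fell and 1 rose with GLP-1. Over all genes there, 1912 fell and 1945 rose of 12657 with BMS-21, and 1835 fell and 2047 rose of 12647 with GLP-1. Within replicates 3 and 4, 19 fell and 0 rose with BMS-21, and 14 fell and 0 rose with GLP-1. Over all genes there, 1997 fell and 2126 rose of 12628 with BMS-21, and 1559 fell and 1776 rose of 12618 with GLP-1. Without Control replicate 3, 9 genes passed with GLP-1, and DESeq2 called 8 with GLP-1 and 13 with BMS-21. Over all genes DESeq2 called 1471 lower and 1721 higher of 13324 with GLP-1, and 1694 lower and 1806 higher of 14010 with BMS-21. When libraries were scaled by their total reads, 27 genes fell with BMS-21 and 24 with GLP-1 and 0 rose with either. That scaling also moved the calls over all genes, to 1510 higher and 3068 lower with BMS-21 (2125 and 2128 in the scaling used here), and to 1451 higher and 2960 lower with GLP-1 (2044 and 1967).

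**Figure D1:**
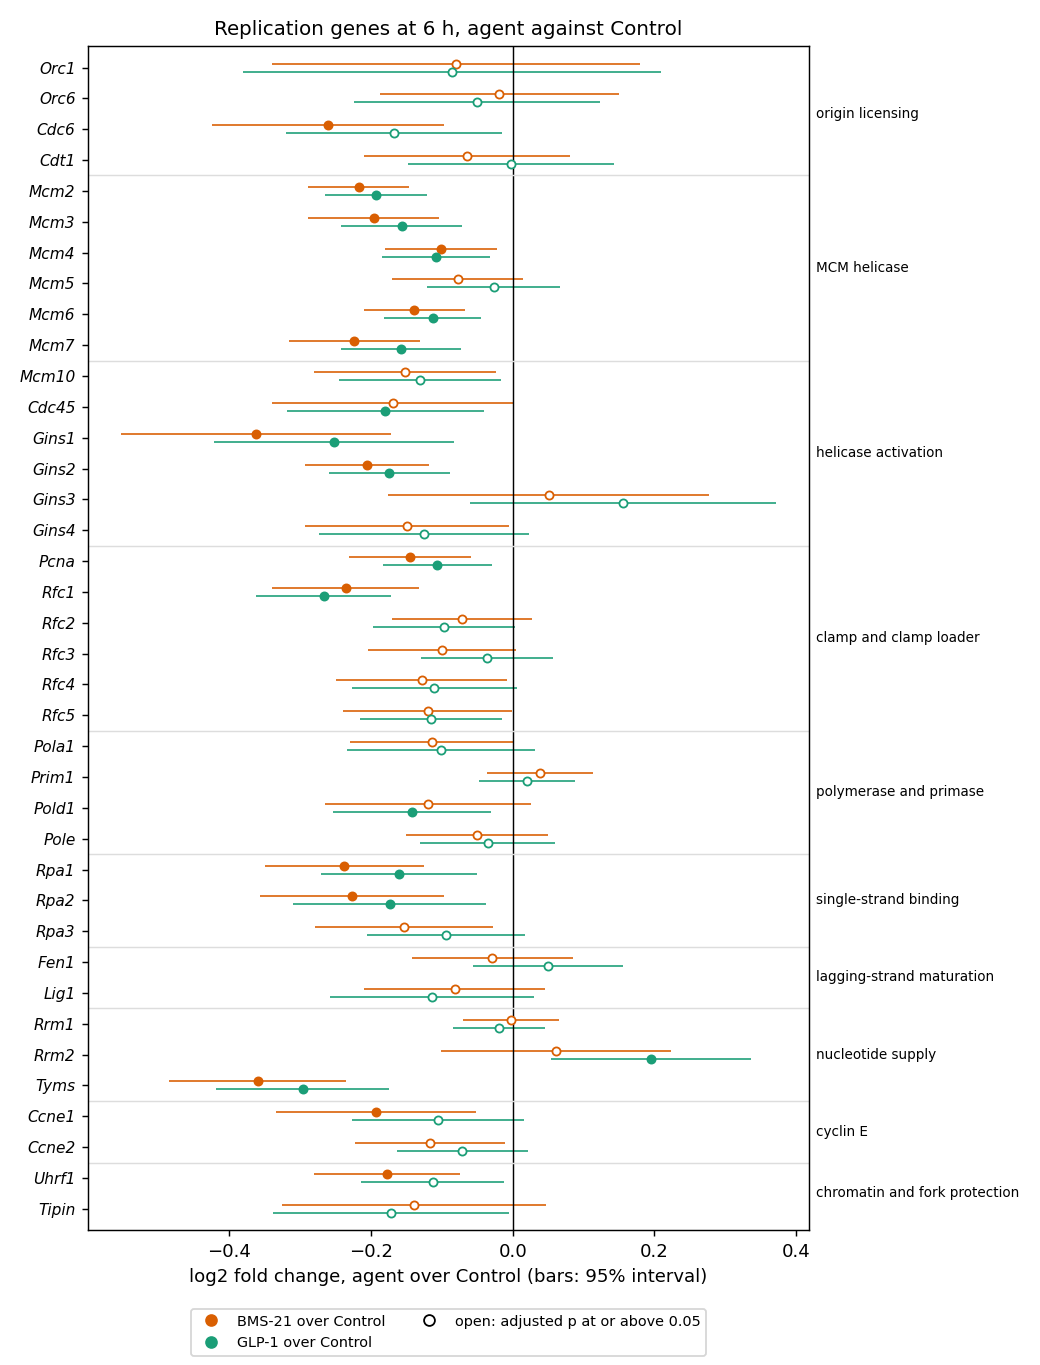
Log2 fold change of the 38 replication genes at 6 h, ordered by role, for BMS-21 over Control (orange) and GLP-1 over Control (green). Points are limma estimates from 4 libraries a group, bars are 95% intervals, and open points had an adjusted p at or above 0.05. Most points lie left of 0, and filled points left of 0 number 15 for BMS-21 and 14 for GLP-1.

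The stretches of DNA just upstream of the annotated start sites are shown for 6 genes that fell with both agents at 6 h, because such stretches in replication genes often hold E2F-type sequences. They come from RefSeq on the GRCr8 build, which is not the Rnor_5.0 build named in the submitters' processing notes. Each is 100 bases on the gene's own strand, 5′ to 3′, and capitals mark a match to TTTCCCGC, TTTGGCGC, TTTCGCGC or TTTGCCGC on either strand, with overlapping matches run together. Positions are counted from the start site, with -1 the base before it. The stretch of Mcm2 is chr4:122918095-122918194 (minus strand, -100 to -1), that of Mcm6 chr13:42404440-42404539 (minus strand, -187 to -88), and that of Mcm7 chr12:22163183-22163282 (minus strand, -104 to -5). The stretch of Gins1 is chr3:160184820-160184919 (plus strand, -100 to -1), that of Tyms chr9:120776084-120776183 (minus strand, -100 to -1), and that of Pcna chr3:139955821-139955920 (minus strand, -100 to -1).
Mcm2: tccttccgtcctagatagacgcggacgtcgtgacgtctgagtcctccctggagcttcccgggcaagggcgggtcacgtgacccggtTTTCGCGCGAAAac
Mcm6: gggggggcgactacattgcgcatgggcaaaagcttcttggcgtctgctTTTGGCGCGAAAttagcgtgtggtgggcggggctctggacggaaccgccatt
Mcm7: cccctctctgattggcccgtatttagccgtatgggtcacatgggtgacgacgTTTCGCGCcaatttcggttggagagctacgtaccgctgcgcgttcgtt
Gins1: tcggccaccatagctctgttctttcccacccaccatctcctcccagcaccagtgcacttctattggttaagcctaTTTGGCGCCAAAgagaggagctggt
Tyms: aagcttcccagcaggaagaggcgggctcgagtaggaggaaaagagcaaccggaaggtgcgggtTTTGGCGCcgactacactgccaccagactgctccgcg
Pcna: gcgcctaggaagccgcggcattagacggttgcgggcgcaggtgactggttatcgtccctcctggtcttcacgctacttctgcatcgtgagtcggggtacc
In Mcm2 the matches on the 2 strands overlap and span -14 to -3, and in Gins1 they span -25 to -14. Mcm6 has overlapping matches from -139 to -128, Mcm7 has one from -52 to -45 and a further one outside the printed stretch, from -233 to -226, and Tyms has one from -37 to -30. No match lies in the Pcna stretch or in the rest of its window, which says only that these letters are absent there. Over windows from 250 bases before to 50 bases after the start, 16 of 31 replication genes with a RefSeq window held at least 1 match (51.6%), against 363 of 8674 tested genes with a window (4.18%) and 716 of all 33469 windows (2.14%). The remaining genes with a match were Mcm3, Mcm5, Gins3, Cdt1, Rfc3, Pola1, Pole, Rpa2, Lig1, Uhrf1 and Tipin. Among the genes that fell with both agents, Mcm2, Mcm3, Mcm6, Mcm7, Gins1, Rpa2 and Tyms had a match. Pcna, Gins2, Rfc1 and Rpa1 had a window without one. Mcm4, Cdc6, Gins4, Orc1, Rpa3, Rrm2 and Ccne2 had no entry. A match is a run of letters and not evidence of binding.

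Most genes of the MCM helicase, the ring of 6 subunits that unwinds DNA ahead of the fork, were lower. At 6 h, 5 of the 6 fell with BMS-21 (median log2 fold change -0.17) and 5 of 6 with GLP-1 (median -0.13). Mcm2 had 176, 177, 174 and 178 CPM in the BMS-21 libraries, 176, 186, 174 and 178 CPM in the GLP-1 libraries and 208, 209, 201 and 202 CPM in the Control libraries. Every library of either agent was below every Control library. Its log2 fold change was -0.22 ± 0.034 with BMS-21 (limma adjusted p = 3.27e-05) and -0.19 ± 0.035 with GLP-1 (limma adjusted p = 0.000192), decreases of 14.0% and 12.5%. Mcm3 had 104, 101, 91.4 and 104 CPM with BMS-21, 99.7, 109.8, 99.4 and 99.8 CPM with GLP-1 and 116, 112, 111 and 116 CPM in Control. Replicate 2 of GLP-1 stood above the other libraries of its group, and the treated libraries again did not overlap Control. Mcm3 fell by 0.20 ± 0.045 on the log2 scale with BMS-21 (limma adjusted p = 0.00151) and by 0.16 ± 0.041 with GLP-1 (limma adjusted p = 0.00566). Mcm6 had 252, 252, 237 and 248 CPM with BMS-21, 247, 259, 244 and 252 CPM with GLP-1 and 272, 267, 269 and 279 CPM in Control, without overlap between treated and Control libraries. Mcm6 changed by -0.14 ± 0.035 with BMS-21 (limma adjusted p = 0.00335) and by -0.11 ± 0.033 with GLP-1 (limma adjusted p = 0.0118).

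Mcm7 had 201, 202, 176 and 191 CPM with BMS-21, 207, 209, 187 and 199.7 CPM with GLP-1 and 229, 234, 221 and 213 CPM in Control at 6 h. Each treated library was below each Control library, and the log2 fold change was -0.22 ± 0.044 with BMS-21 (limma adjusted p = 0.000432) and -0.16 ± 0.04 with GLP-1 (limma adjusted p = 0.00493). The gene also hosts Mir25, Mir93 and Mir106b, microRNAs read from the same transcript. Mcm4 fell least of the 5, with means of 181 ± 4.57 CPM in BMS-21 libraries, 179.6 ± 4.31 CPM in GLP-1 libraries and 194 ± 8.02 CPM in Control libraries. Its treated and Control libraries overlapped, and its call (limma adjusted p = 0.0455 with BMS-21 and 0.0293 with GLP-1) was lost under 9 of 20 alternatives for BMS-21 and 6 of 20 for GLP-1. Mcm5 did not pass the test with either agent. It had 76.0, 79.7, 79.9 and 83.2 CPM with BMS-21, 79.2, 85.7, 78.3 and 85.8 CPM with GLP-1 and 87.0, 85.7, 80.0 and 83.0 CPM in Control, with 95% intervals of the log2 fold change of -0.17 to 0.015 for BMS-21 and -0.12 to 0.067 for GLP-1. Whether the response of Mcm5 differed from those of the other subunits was not tested.

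**Figure D2:**
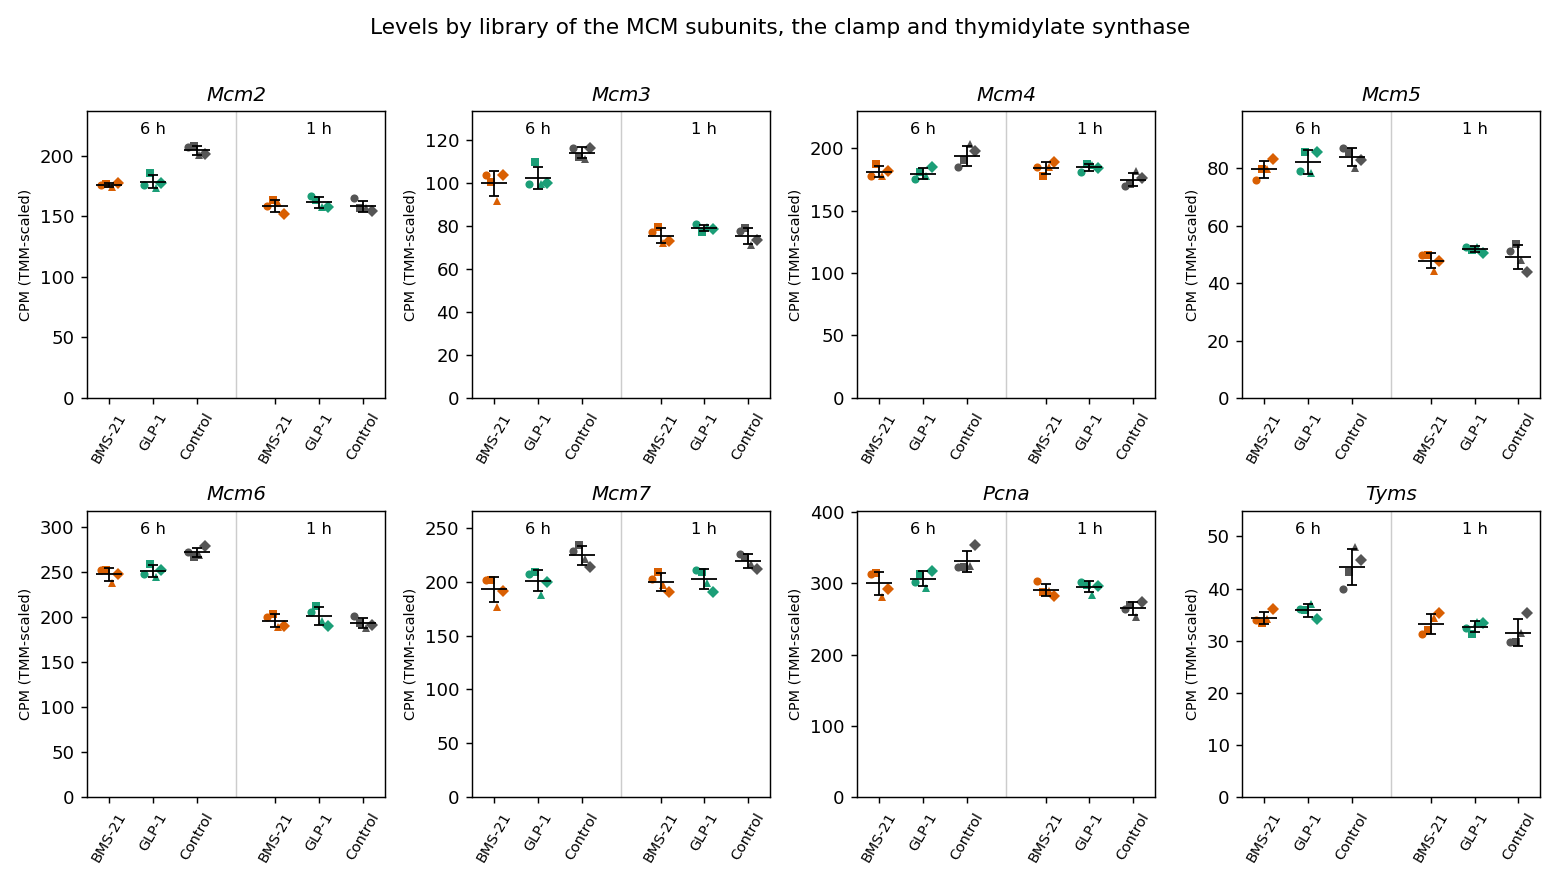
CPM per library of the 6 MCM genes, Pcna and Tyms in BMS-21, GLP-1 and Control cells at 6 h (left of each panel) and 1 h (right of each panel). Circles, squares, triangles and diamonds are replicates 1 to 4, and bars are the mean ± SD of 4 libraries. At 6 h the treated libraries of Mcm2, Mcm3, Mcm6, Mcm7, Pcna and Tyms lie below all Control libraries, while those of Mcm4 and Mcm5 overlap them.

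Among the genes that activate the helicase, the GINS subunits Gins1 and Gins2 fell with both agents. Gins1 had 15.3, 15.5, 11.3 and 13.6 CPM with BMS-21, 15.1, 17.1, 13.3 and 14.2 CPM with GLP-1 and 17.7, 17.6, 17.9 and 17.7 CPM in Control, where the libraries were tightly grouped. Treated libraries spread more widely but stayed below Control, with a log2 fold change of -0.36 ± 0.091 for BMS-21 (limma adjusted p = 0.00365) and -0.25 ± 0.081 for GLP-1 (limma adjusted p = 0.0218). The GLP-1 call was lost under 5 of 20 alternatives. Gins2 had 74.7, 75.9, 74.2 and 77.9 CPM with BMS-21, 73.7, 78.7, 76.8 and 78.9 CPM with GLP-1 and 88.7, 87.3, 83.5 and 88.7 CPM in Control, again without overlap. It fell by 0.21 ± 0.042 with BMS-21 (limma adjusted p = 0.000597) and by 0.17 ± 0.041 with GLP-1 (limma adjusted p = 0.00258). Gins2 overlaps the gene Gse1 in the RefSeq annotation, and reads of overlapping genes cannot be told apart in libraries that do not keep the strand. Fen1, Lig1, Rrm2, Ccne2 and Uhrf1 likewise overlap a protein-coding gene, and Mcm3, Gins1, Pola1, Pole and Rpa1 a pseudogene. The other GINS genes did not pass the test. Gins3 averaged 8.00 ± 0.847 CPM with BMS-21, 8.56 ± 0.722 CPM with GLP-1 and 7.69 ± 0.650 CPM in Control, and Gins4 averaged 19.3 ± 0.672, 19.5 ± 1.18 and 21.3 ± 1.24 CPM in the same groups. Cdc45, which rides with the helicase, was at -0.17 ± 0.082 with BMS-21 (limma adjusted p = 0.121, and 0.0406 with the replicate block) and fell with GLP-1 (-0.18 ± 0.067, limma adjusted p = 0.0447). Cdc45 had 1 low BMS-21 library, with values of 30.6, 30.6, 22.7 and 29.7 CPM, and its GLP-1 call was lost under 10 of 20 alternatives. Mcm10 was at -0.15 with BMS-21 (limma adjusted p = 0.0627) and -0.13 with GLP-1 (limma adjusted p = 0.0756), and passed with both under the replicate block (limma adjusted p = 0.0192 and 0.0248).

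Of the 4 origin licensing genes, 1 fell with BMS-21 and 0 with GLP-1. Cdc6, the loader that brings MCM rings to origins, had 20.2, 18.9, 23.6 and 20.5 CPM with BMS-21, 20.5, 21.9, 22.1 and 23.8 CPM with GLP-1 and 24.8, 21.9, 25.9 and 27.0 CPM in Control. The treated libraries lay low within the Control range or below it, with overlap in both comparisons. Its log2 fold change was -0.26 ± 0.079 with BMS-21 (limma adjusted p = 0.0136) and -0.17 ± 0.073 with GLP-1 (limma adjusted p = 0.088, and 0.0286 with the replicate block). Cdt1, the second MCM loader, had 24.7, 29.0, 25.5 and 26.3 CPM with BMS-21, 24.9, 28.7, 26.6 and 29.4 CPM with GLP-1 and 29.3, 27.6, 28.4 and 24.8 CPM in Control, with 95% intervals of -0.21 to 0.082 for BMS-21 and -0.15 to 0.14 for GLP-1. Orc1 was at -0.08 ± 0.13 with BMS-21 and -0.086 ± 0.14 with GLP-1, and Orc6 at -0.019 ± 0.081 and -0.05 ± 0.083 with the same agents.

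In the clamp and its loader, Pcna and Rfc1 fell with both agents, while the calls of Rfc2, Rfc4 and Rfc5 depended on whether the replicate number was a block, and Rfc3 passed in neither fit. Pcna had 314, 314, 281 and 292 CPM with BMS-21, 302, 314, 294 and 318 CPM with GLP-1 and 323, 323, 325 and 354 CPM in Control at 6 h. Replicate 4 of Control stood above the rest of its group, and no treated library reached the lowest Control library. Its log2 fold change was -0.14 ± 0.042 with BMS-21 (limma adjusted p = 0.00931) and -0.11 ± 0.037 with GLP-1 (limma adjusted p = 0.0324). Rfc1, the large subunit of the loader, had 49.4, 51.2, 48.9 and 45.6 CPM with BMS-21, 45.7, 47.8, 47.5 and 49.0 CPM with GLP-1 and 58.3, 57.4, 56.3 and 57.0 CPM in Control. All treated libraries were well below Control, with -0.24 ± 0.05 for BMS-21 (limma adjusted p = 0.000791) and -0.27 ± 0.046 for GLP-1 (limma adjusted p = 0.000112). The small loader subunits had log2 fold changes of -0.072 for Rfc2, -0.10 for Rfc3, -0.13 for Rfc4 and -0.12 for Rfc5 with BMS-21. With GLP-1 they were -0.10, -0.036, -0.11 and -0.12, and the GLP-1 libraries of Rfc5 lay below all Control libraries. None of the 4 passed without the block. With it, Rfc4 and Rfc5 passed with BMS-21 (limma adjusted p = 0.0415 and 0.0431), and Rfc2, Rfc4 and Rfc5 with GLP-1 (limma adjusted p = 0.021, 0.0401 and 0.016). Over the 6 genes of the clamp and its loader, the median log2 fold change was -0.12 with BMS-21 and -0.11 with GLP-1.

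RPA, the trimer that coats single-stranded DNA, had 2 of 3 genes lower with BMS-21 and 2 of 3 with GLP-1. Rpa1 had 37.5, 37.1, 35.0 and 37.1 CPM with BMS-21, 39.3, 36.7, 38.4 and 39.8 CPM with GLP-1 and 43.2, 40.7, 44.7 and 44.1 CPM in Control, and treated and Control libraries did not overlap. It changed by -0.24 ± 0.054 with BMS-21 (limma adjusted p = 0.0015) and by -0.16 ± 0.053 with GLP-1 (limma adjusted p = 0.0245). The GLP-1 call was lost under 5 of 20 alternatives. Rpa2 had 34.6, 33.7, 35.7 and 31.7 CPM with BMS-21, 34.3, 31.7, 37.6 and 36.8 CPM with GLP-1 and 37.1, 38.7, 38.7 and 44.3 CPM in Control, so that the BMS-21 libraries were all below Control and those of GLP-1 overlapped it. Rpa2 changed by -0.23 ± 0.062 with BMS-21 (limma adjusted p = 0.00705) and by -0.17 ± 0.065 with GLP-1 (limma adjusted p = 0.0483), the GLP-1 call being lost under 8 of 20 alternatives. Rpa3, the smallest subunit, was at -0.15 with BMS-21 (limma adjusted p = 0.0546, and 0.0214 with the replicate block) and -0.094 with GLP-1 (limma adjusted p = 0.199).

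Of the polymerase and primase genes, Pold1, the catalytic subunit of polymerase delta, was the 1 of 4 that passed without the replicate block. It was at -0.12 ± 0.07 with BMS-21 (limma adjusted p = 0.205) and fell with GLP-1 (-0.14 ± 0.054, limma adjusted p = 0.0485). The call with GLP-1 was lost under 10 of 20 alternatives, including without GLP-1 replicate 1, 2 or 3 and without Control replicate 2, 3 or 4. Pola1, the polymerase that extends primers, was at -0.11 ± 0.056 with BMS-21 and -0.10 ± 0.063 with GLP-1, Pole, of the leading strand, at -0.05 ± 0.048 and -0.035 ± 0.046, and Prim1, the primase, at 0.038 ± 0.036 and 0.02 ± 0.033. With the replicate block Pola1 passed with both agents (limma adjusted p = 0.0342 for BMS-21 and 0.021 for GLP-1). The lagging-strand genes did not pass in either fit, with Fen1, the flap endonuclease, at -0.029 ± 0.055 with BMS-21 and 0.05 ± 0.051 with GLP-1, and Lig1, the ligase, at -0.082 ± 0.061 and -0.11 ± 0.069 with the same agents.

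Nucleotide supply was split between its genes. Tyms, which makes thymidylate, had 34.0, 33.4, 34.1 and 36.1 CPM with BMS-21, 36.2, 35.9, 37.0 and 34.2 CPM with GLP-1 and 39.99, 43.2, 48.0 and 45.4 CPM in Control. Its treated libraries were clearly separated from Control, and it fell by 0.36 ± 0.06 on the log2 scale with BMS-21 (limma adjusted p = 6.19e-05) and by 0.30 ± 0.059 with GLP-1 (limma adjusted p = 0.000521), decreases of 22.1% and 18.6%. Rrm2, the small subunit of ribonucleotide reductase, was the only one of the 38 genes that rose with an agent at 6 h. It had 27.9, 28.4, 21.9 and 24.4 CPM with BMS-21, 27.7, 29.9, 24.9 and 29.2 CPM with GLP-1 and 24.8, 23.5, 23.5 and 25.8 CPM in Control, and both treated groups overlapped Control. Its log2 fold change was 0.062 ± 0.078 with BMS-21 (limma adjusted p = 0.589) and 0.19 ± 0.068 with GLP-1 (limma adjusted p = 0.0329), and the GLP-1 call was lost under 9 of 20 alternatives, among them scaling by library totals. Rrm1, the large subunit, had intervals of -0.071 to 0.066 with BMS-21 and -0.085 to 0.045 with GLP-1.

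Cyclin E1, which with its kinase starts S phase, had 26.3, 27.8, 24.6 and 30.3 CPM with BMS-21, 27.5, 29.1, 29.7 and 29.0 CPM with GLP-1 and 30.2, 33.0, 31.1 and 29.9 CPM in Control. The GLP-1 libraries lay just below the Control range and 1 BMS-21 library overlapped it. Ccne1 changed by -0.19 ± 0.068 with BMS-21 (limma adjusted p = 0.032) and was at -0.11 ± 0.058 with GLP-1 (limma adjusted p = 0.184). The BMS-21 call was lost under 6 of 20 alternatives. Ccne2 had 83.7, 77.5, 71.9 and 77.4 CPM with BMS-21, 77.6, 78.7, 82.5 and 79.9 CPM with GLP-1 and 83.5, 82.4, 79.6 and 90.3 CPM in Control, and did not pass with either agent (limma adjusted p = 0.0835 and 0.241), though it passed with BMS-21 under the replicate block (limma adjusted p = 0.0297). Uhrf1, which guides maintenance methylation to newly copied DNA, had 49.1, 51.3, 49.4 and 49.5 CPM with BMS-21, 51.7, 50.4, 51.8 and 53.7 CPM with GLP-1 and 58.2, 52.5, 57.6 and 56.7 CPM in Control. It fell with BMS-21 (-0.18 ± 0.05, limma adjusted p = 0.00782), and its value with GLP-1 was -0.11 ± 0.048 (limma adjusted p = 0.0814, and 0.028 with the replicate block). Tipin, a partner of Timeless in fork protection, was at -0.14 ± 0.09 with BMS-21 and -0.17 ± 0.08 with GLP-1, without passing. None of the genes called with 1 agent alone differed between the agents.

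**Figure D3:**
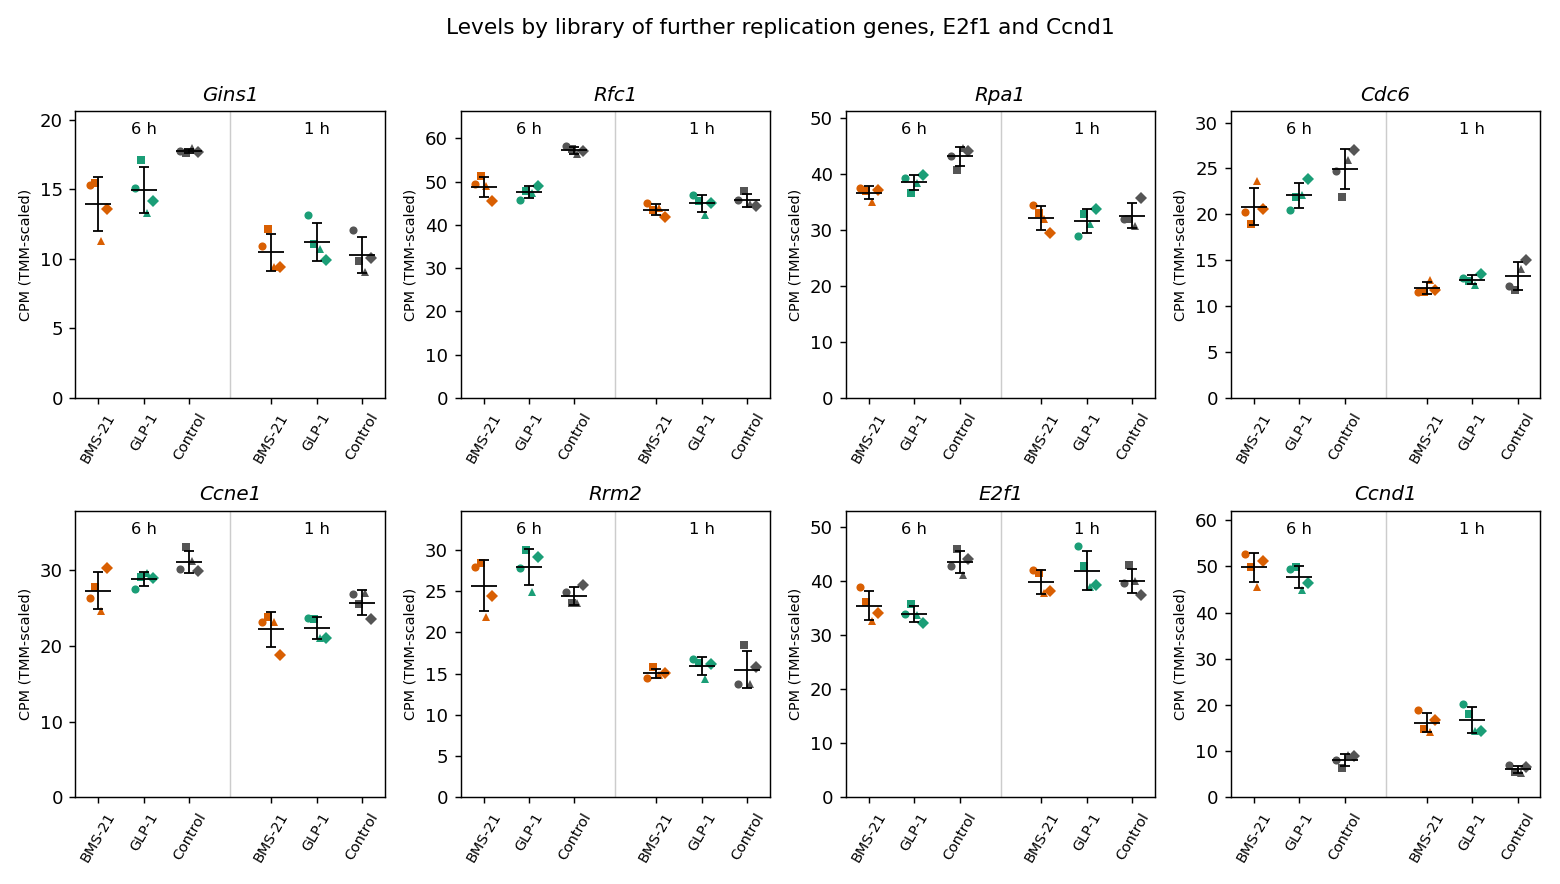
CPM per library of Gins1, Rfc1, Rpa1, Cdc6, Ccne1, Rrm2, E2f1 and Ccnd1 in BMS-21, GLP-1 and Control cells at 6 h (left of each panel) and 1 h (right of each panel), with markers for replicates 1 to 4 and bars for the mean ± SD of 4 libraries. At 6 h the treated libraries of Gins1, Rfc1, Rpa1 and E2f1 lie below Control and those of Ccnd1 far above it, and Rrm2 overlaps.

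After 1 h few of these genes had moved. With BMS-21, 1 rose and 1 fell (2.63% each), against 3.54% of all genes tested that rose and 2.37% that fell. With GLP-1, 2 rose and 0 fell (5.26% and 0%), against 4.17% of all genes that rose and 2.41% that fell. These shares are close to those of all genes. Pcna was the gene that rose with both. It had 304, 288, 289.8 and 283 CPM with BMS-21, 302, 298, 284 and 297 CPM with GLP-1 and 265, 270.0, 253 and 273 CPM in Control at 1 h. Every treated library was above every Control library, with a log2 fold change of 0.13 ± 0.037 for BMS-21 (limma adjusted p = 0.0303) and 0.16 ± 0.035 for GLP-1 (limma adjusted p = 0.00431), increases of 9.56% and 11.4%. The call was lost under 5 of 20 alternatives with BMS-21 and 1 of 20 with GLP-1. Orc1, the largest subunit of the origin recognition complex, rose with GLP-1 and had 4.81, 4.05, 4.30 and 4.40 CPM with BMS-21, 6.05, 6.30, 5.66 and 5.51 CPM with GLP-1 and 3.84, 3.14, 4.62 and 5.04 CPM in Control. The GLP-1 libraries were all above Control, and the log2 fold change was 0.094 ± 0.15 with BMS-21 (limma adjusted p = 0.872) and 0.51 ± 0.14 with GLP-1 (limma adjusted p = 0.0285). The GLP-1 call rested on low counts (a mean of 49.8 reads in Control libraries) and was lost under 6 of 20 alternatives, including without GLP-1 replicate 1 or 2 and without Control replicate 1 or 2. Mcm7 fell with BMS-21 and had 203, 209, 197 and 190.0 CPM with BMS-21, 210.4, 209, 199 and 191 CPM with GLP-1 and 226, 222, 216 and 212 CPM in Control. Both treated groups lay below Control, at -0.14 ± 0.038 for BMS-21 (limma adjusted p = 0.0331) and -0.12 ± 0.038 for GLP-1 (limma adjusted p = 0.0699), and the BMS-21 call was lost under 9 of 20 alternatives. Other genes did not pass at 1 h, such as Ccne1 at -0.22 ± 0.078 with BMS-21 and -0.20 ± 0.071 with GLP-1.

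With the replicate number as a block, 1 gene rose and 3 fell with BMS-21 at 1 h, and 2 rose and 2 fell with GLP-1. The added calls were Ccne1 with BMS-21 and GLP-1 (limma adjusted p = 0.0112 and 0.0211), Cdt1 with BMS-21 (limma adjusted p = 0.046) and Mcm7 with GLP-1 (limma adjusted p = 0.000846). Over all genes the block gave 851 higher and 700 lower of 12697 with BMS-21, and 857 and 656 of 12715 with GLP-1. Within replicates 1 and 2, 1 rose and 0 fell with BMS-21, and 2 rose and 0 fell with GLP-1. Over all genes there, 511 rose and 314 fell of 12720 with BMS-21, and 586 and 319 of 12752 with GLP-1. Within replicates 3 and 4, 0 passed with either agent. Over all genes there, 318 rose and 179 fell of 12651 with BMS-21, and 383 and 175 of 12682 with GLP-1. Leaving out 1 library changed the counts of replication genes. With BMS-21, 0 passed without Control replicate 1 or 3 or BMS-21 replicate 1, and 1 passed without Control replicate 2 or BMS-21 replicate 3 or 4. With GLP-1, 1 passed without Control replicate 1 or 2 or GLP-1 replicate 2, and 4 passed without Control replicate 4.

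The change in response between 1 h and 6 h was tested directly, as the log2 fold change of an agent over Control at 6 h minus that at 1 h, with edgeR's quasi-likelihood test over all 24 libraries. The response of 7 of 38 genes shifted downward with BMS-21 (18.4%, against 10.9% of all genes) and of 9 with GLP-1 (23.7%, against 9.01%). Upward, 0 shifted with either agent, against 10.8% of all genes with BMS-21 and 8.3% with GLP-1. Pcna, which was higher at 1 h and lower at 6 h, had a shift of -0.28 ± 0.054 with BMS-21 (edgeR adjusted p = 0.000191) and -0.27 ± 0.054 with GLP-1 (edgeR adjusted p = 0.000363). Tyms had the largest shift with BMS-21, -0.43 ± 0.085 (edgeR adjusted p = 0.000191), and -0.35 ± 0.085 with GLP-1 (edgeR adjusted p = 0.00263). Among MCM genes, Mcm2 shifted by -0.22 ± 0.047 with BMS-21 and -0.22 ± 0.047 with GLP-1 (edgeR adjusted p = 0.000634 and 0.00054). Mcm3 shifted by -0.19 ± 0.063 with BMS-21 and -0.23 ± 0.063 with GLP-1 (edgeR adjusted p = 0.0254 and 0.00852). The shifts of Mcm4 were -0.17 and -0.19, those of Mcm6 -0.15 and -0.17, and those of Gins2 -0.19 and -0.20 for BMS-21 and GLP-1, with edgeR adjusted p between 0.00392 and 0.0449. The Gins2 shift was lost under 14 of 24 alternatives with BMS-21 and under 8 of 24 with GLP-1. With BMS-21, the shifts of Mcm3 and Mcm6 were each lost under 6 of 24. Rfc1 (-0.25 ± 0.066, edgeR adjusted p = 0.00633) and Orc1 (-0.59 ± 0.2, edgeR adjusted p = 0.0325) shifted with GLP-1. With BMS-21 their values were -0.16 ± 0.066 and -0.17 ± 0.2 (edgeR adjusted p = 0.0729 and 0.62). The Orc1 shift with GLP-1 was lost under 10 of 24 alternatives. Mcm7, whose log2 fold changes were negative at both times, had a shift that did not pass, at -0.085 ± 0.06 with BMS-21 and -0.045 ± 0.06 with GLP-1. With a replicate block 11 genes shifted downward with BMS-21 and 13 with GLP-1, against 1913 and 1708 of all 13114 genes. The added ones were Gins1, Rfc1, Pola1 and Rpa1 with BMS-21 (edgeR adjusted p = 0.0158, 0.0466, 0.028 and 0.024), and Gins1, Cdc45, Rfc2 and Rpa2 with GLP-1 (edgeR adjusted p = 0.0153, 0.0328, 0.0321 and 0.0365). Within replicates 1 and 2, 3 shifted downward with BMS-21 and 9 with GLP-1, against 1176 and 1025 of all 13196 genes. Within replicates 3 and 4, 6 shifted downward with BMS-21 and 5 with GLP-1, against 1128 and 847 of all 13092 genes. The BMS-21 count was 4 of 38 without Control 1 h replicate 3, without BMS-21 1 h replicate 2 or without BMS-21 6 h replicate 3.

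**Figure D4:**
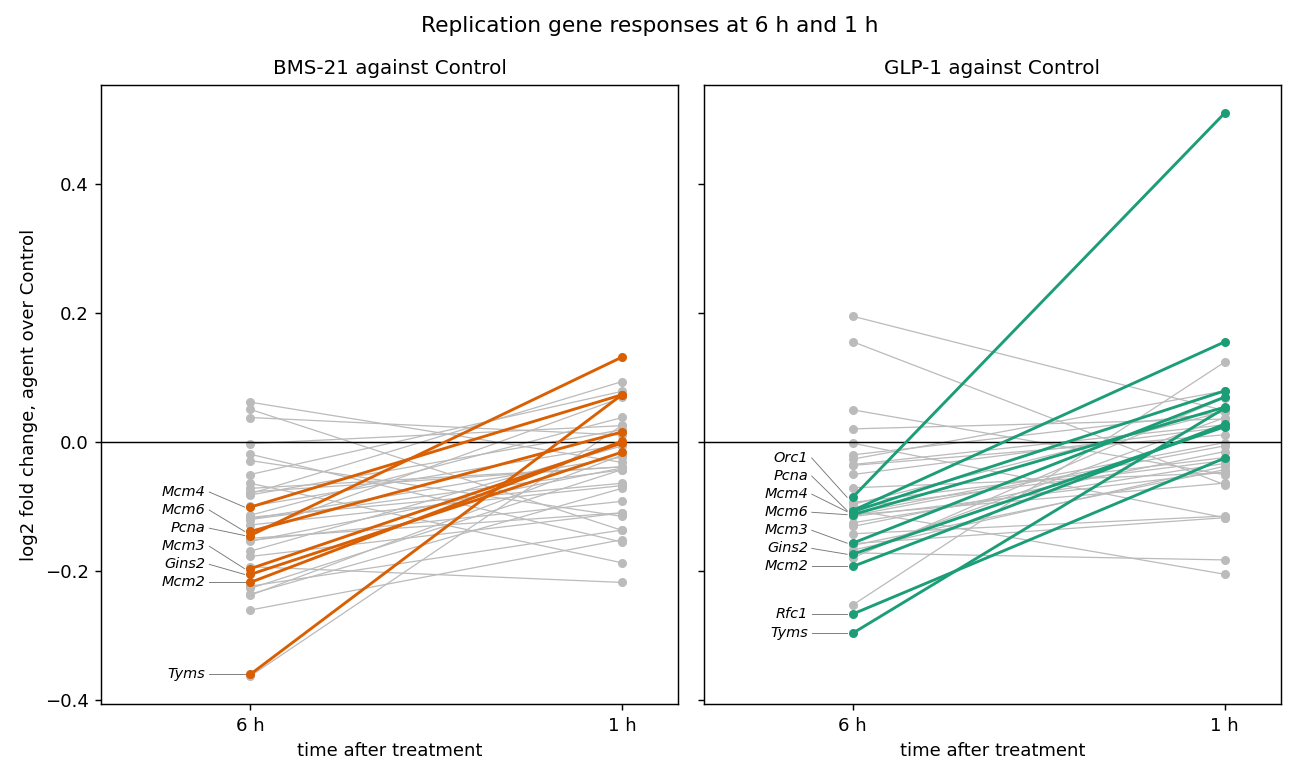
Log2 fold change over Control at 6 h (left end of each line) and at 1 h (right end) of the 38 replication genes, with BMS-21 in the left panel and GLP-1 in the right panel. Coloured lines are the 7 genes with BMS-21 and 9 with GLP-1 whose response differed between the times at an edgeR adjusted p under 0.05, and each of them is lower at 6 h than at 1 h.

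The agents were also set against each other, at the doses used, which differ (1 µM BMS-21 and 100 nM GLP-1). None of the 38 genes differed between BMS-21 and GLP-1 at 6 h, where 0.0158% of all genes did, or at 1 h, where 0% did. edgeR and DESeq2 also called 0 at both times. At an unadjusted p under 0.05, limma gave 0 of 38 at 6 h and 4 of 38 at 1 h. Those 4 were Orc1 at -0.42 (95% interval -0.67 to -0.16), Tipin at 0.25, Mcm5 at -0.12 and Orc6 at -0.18, as log2 of BMS-21 over GLP-1. Over the 38 genes, the 95% intervals of this difference reached from -0.33 to 0.27 at 6 h and from -0.67 to 0.44 at 1 h. They lay within 0.2 of 0 for 28 genes at 6 h and for 23 at 1 h. For Mcm2 at 6 h the interval was -0.095 to 0.051, for Pcna -0.12 to 0.049, for Tyms -0.18 to 0.054 and for Rrm2 -0.31 to 0.046. Differences between the agents that lie within these intervals remain compatible with these libraries.

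At 6 h most replication genes were higher than at 1 h within the same treatment. With BMS-21, 30 of 38 rose and 0 fell (78.9%, against 30.1% of all genes that rose and 31.3% that fell). With GLP-1, 26 rose and 1 fell (68.4% and 2.63%, against 29.2% that rose and 30% that fell). In Control, 34 rose and 0 fell (89.5%, against 26% that rose and 26.9% that fell). The median log2 fold change of 6 h over 1 h was 0.32 with BMS-21, 0.30 with GLP-1 and 0.40 in Control, while the median over all genes was within 0.01 of 0 in each. The 6 h libraries were all above the 1 h libraries for 27 genes with BMS-21, 26 with GLP-1 and 33 in Control, against 26%, 25.5% and 23% of all genes. The 3 comparisons use different libraries, but same-numbered libraries deviated together across groups, so the comparisons are not fully independent. Of the 38 genes, 26 rose in all 3, and the share of all genes that did so was not computed. Within replicates 1 and 2, 27 genes rose with BMS-21, 27 with GLP-1 and 32 in Control, against 3504, 3491 and 3034 of all 13196 genes. Within replicates 3 and 4, 28, 26 and 35 rose in the same groups, against 3469, 3332 and 2951 of all 13092 genes. These values are from edgeR's quasi-likelihood test. With the replicate block Cdc45 also rose with BMS-21, Orc6, Tyms and Tipin with GLP-1, and Pola1 and Tipin in Control (edgeR adjusted p = 0.0293, 0.0435, 0.0301, 0.0373, 0.00905 and 0.0389).

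The origin licensing genes rose together in Control, 4 of 4, with a median log2 fold change of 0.55. Cdc6 had 11.5, 11.5, 12.9 and 11.8 CPM with BMS-21, 13.1, 12.8, 12.3 and 13.5 CPM with GLP-1 and 12.2, 11.8, 14.0 and 15.0 CPM in Control at 1 h. It rose by 0.80 ± 0.085 with BMS-21, by 0.77 ± 0.083 with GLP-1 and by 0.91 ± 0.081 in Control, the largest change of the 38 there and an increase of 87.6% (edgeR adjusted p = 2.75e-10, 3.61e-10 and 4.76e-12). Every 6 h library of Cdc6 was above every 1 h library in each group. Cdt1 had 21.6, 21.1, 21.7 and 19.0 CPM with BMS-21, 23.3, 20.5, 22.8 and 20.8 CPM with GLP-1 and 24.9, 26.3, 23.4 and 20.4 CPM in Control at 1 h, and its change over time was 0.34 ± 0.076, 0.32 ± 0.075 and 0.21 ± 0.074 in those groups (edgeR adjusted p = 0.000222, 0.000329 and 0.0159). The Control libraries of Cdt1 overlapped between times. Orc1 rose by 0.68 ± 0.14 with BMS-21 and by 0.85 ± 0.14 in Control (edgeR adjusted p = 9.91e-05 and 3.63e-06), and with GLP-1, whose 1 h level was higher, the value was 0.26 ± 0.13 (edgeR adjusted p = 0.0961).

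The MCM genes differed widely in their change over time. Mcm5 had 49.8, 49.7, 44.2 and 47.8 CPM with BMS-21, 52.7, 51.5, 52.6 and 50.6 CPM with GLP-1 and 51.2, 53.5, 48.1 and 43.9 CPM in Control at 1 h, all below the 6 h libraries of the same group. It rose by 0.74 ± 0.051 with BMS-21, by 0.66 ± 0.051 with GLP-1 and by 0.77 ± 0.051 in Control, a 70.6% increase (edgeR adjusted p = 3.39e-15, 4.57e-14 and 1.03e-15). Mcm3 had 77.3, 79.4, 71.9 and 73.0 CPM with BMS-21, 80.7, 77.2, 79.7 and 78.8 CPM with GLP-1 and 77.9, 79.1, 71.1 and 73.4 CPM in Control at 1 h, and rose by 0.41 ± 0.045, 0.37 ± 0.045 and 0.60 ± 0.044 in those groups. Mcm6 had 199.7, 204, 189 and 189.9 CPM with BMS-21, 206, 212, 196 and 189.8 CPM with GLP-1 and 201, 194, 187 and 191 CPM in Control at 1 h, and rose by 0.34 ± 0.036, 0.32 ± 0.036 and 0.49 ± 0.036. Both genes rose in all 3 groups, and the responses reported above show that both rose less with either agent than in Control. Mcm2 had 159, 164, 161 and 152 CPM with BMS-21, 167, 164, 157 and 158 CPM with GLP-1 and 165, 157, 157 and 155 CPM in Control at 1 h. It rose by 0.15 ± 0.033 with BMS-21, by 0.14 ± 0.033 with GLP-1 and by 0.37 ± 0.033 in Control (edgeR adjusted p = 0.000206, 0.00034 and 5.69e-12). Mcm4 was at -0.023 ± 0.034 with BMS-21 and -0.04 ± 0.034 with GLP-1 and rose in Control (0.15 ± 0.034, edgeR adjusted p = 0.000269). Mcm7 passed in none of the 3 groups, at -0.051 ± 0.043 with BMS-21, -0.01 ± 0.042 with GLP-1 and 0.035 ± 0.042 in Control.

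Fork genes also rose in Control. All 6 helicase activation genes rose in Control, with Gins1 at 0.79 ± 0.1, Mcm10 at 0.68 ± 0.059, Gins4 at 0.51 ± 0.075 and Cdc45 lowest at 0.31 ± 0.085. Gins1 had 10.9, 12.2, 9.39 and 9.44 CPM with BMS-21, 13.1, 11.1, 10.7 and 9.91 CPM with GLP-1 and 12.1, 9.85, 9.08 and 10.1 CPM in Control at 1 h, and rose by 0.42 ± 0.11 with BMS-21 and 0.41 ± 0.1 with GLP-1. Gins2 had 59.8, 66.2, 59.3 and 59.0 CPM with BMS-21, 62.0, 69.2, 61.9 and 57.9 CPM with GLP-1 and 64.7, 62.4, 62.3 and 57.0 CPM in Control at 1 h, and rose by 0.31 ± 0.049, 0.30 ± 0.048 and 0.50 ± 0.048 in those groups. Gins1 libraries of BMS-21 overlapped between the times, and those of GLP-1 and Control did not. Pcna was at 0.045 ± 0.038 with BMS-21 and 0.054 ± 0.038 with GLP-1 and rose in Control (0.32 ± 0.038, edgeR adjusted p = 4.79e-09). Rfc1 had 45.0, 43.5, 43.9 and 41.7 CPM with BMS-21, 47.0, 45.5, 42.3 and 45.0 CPM with GLP-1 and 45.7, 47.8, 44.8 and 44.4 CPM in Control at 1 h, and changed by 0.16 ± 0.047, 0.079 ± 0.047 and 0.33 ± 0.046 in those groups, without passing with GLP-1 (edgeR adjusted p = 0.15). Rfc4 was the 1 gene that fell over time, with GLP-1 (-0.14 ± 0.06, edgeR adjusted p = 0.0496), a call lost under 10 of 16 alternatives. Rpa1 had 34.4, 33.0, 31.9 and 29.4 CPM with BMS-21, 28.9, 32.9, 31.1 and 33.7 CPM with GLP-1 and 31.9, 32.0, 30.7 and 35.7 CPM in Control at 1 h, and rose by 0.19 ± 0.059, 0.28 ± 0.059 and 0.41 ± 0.057. The 6 h libraries of Rpa1 were above the 1 h libraries in each group. Rpa2 had 30.8, 30.9, 31.0 and 30.2 CPM with BMS-21, 33.1, 30.1, 32.3 and 34.6 CPM with GLP-1 and 32.7, 31.0, 29.9 and 32.8 CPM in Control at 1 h. Its change over time was 0.14 ± 0.063 with BMS-21, 0.11 ± 0.062 with GLP-1 and 0.33 ± 0.061 in Control (edgeR adjusted p = 0.0484, 0.122 and 2.03e-05). The BMS-21 call was lost under 11 of 16 alternatives. Of the polymerases, Pole rose most in Control (0.58 ± 0.055), and Pola1 did not pass there (0.11 ± 0.056, edgeR adjusted p = 0.0874). Fen1 rose by 0.68 ± 0.056 with BMS-21, by 0.69 ± 0.056 with GLP-1 and by 0.59 ± 0.056 in Control.

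The genes of nucleotide supply rose in Control, 3 of 3, with a median of 0.54. Rrm2 had 14.4, 15.7, 14.9 and 15.1 CPM with BMS-21, 16.8, 16.3, 14.4 and 16.2 CPM with GLP-1 and 13.7, 18.5, 13.8 and 15.8 CPM in Control at 1 h, and rose by 0.77 ± 0.087, 0.81 ± 0.085 and 0.66 ± 0.086 in those groups. Its 6 h libraries were above its 1 h libraries in each. Rrm1 rose by 0.52 ± 0.033 with BMS-21, by 0.47 ± 0.033 with GLP-1 and by 0.54 ± 0.033 in Control. Tyms had 31.3, 32.1, 34.3 and 35.3 CPM with BMS-21, 32.5, 31.4, 33.5 and 33.5 CPM with GLP-1 and 29.7, 29.7, 31.5 and 35.4 CPM in Control at 1 h. Its change over time was 0.049 ± 0.061 with BMS-21 (edgeR adjusted p = 0.508) and 0.13 ± 0.061 with GLP-1 (edgeR adjusted p = 0.0613), and it rose in Control (0.48 ± 0.059, edgeR adjusted p = 9.22e-09). Mcm4, Pcna, Tyms and Cdc45 rose in Control and passed with neither agent without the replicate block, and the direct test of the difference passed for Mcm4, Pcna and Tyms with both agents but not for Cdc45 (edgeR adjusted p = 0.423 with BMS-21 and 0.163 with GLP-1, where the block gave 0.0328). Ccne1 had 23.1, 23.8, 23.1 and 18.8 CPM with BMS-21, 23.7, 23.5, 21.1 and 21.0 CPM with GLP-1 and 26.9, 25.5, 27.0 and 23.5 CPM in Control at 1 h, and rose by 0.30 ± 0.072, 0.37 ± 0.071 and 0.27 ± 0.069. Ccne2 had 62.8, 59.4, 57.6 and 61.1 CPM with BMS-21, 65.9, 57.0, 57.6 and 63.4 CPM with GLP-1 and 59.8, 63.2, 61.6 and 66.9 CPM in Control at 1 h, and rose by 0.37 ± 0.051, 0.39 ± 0.051 and 0.42 ± 0.05. Both cyclin E genes thus rose in every group without overlap between the times. Uhrf1 had 42.7, 42.7, 42.0 and 36.3 CPM with BMS-21, 41.7, 45.3, 42.3 and 39.4 CPM with GLP-1 and 40.8, 47.6, 44.1 and 43.8 CPM in Control at 1 h, and rose by 0.28 ± 0.055, 0.30 ± 0.054 and 0.35 ± 0.053.

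**Figure D5:**
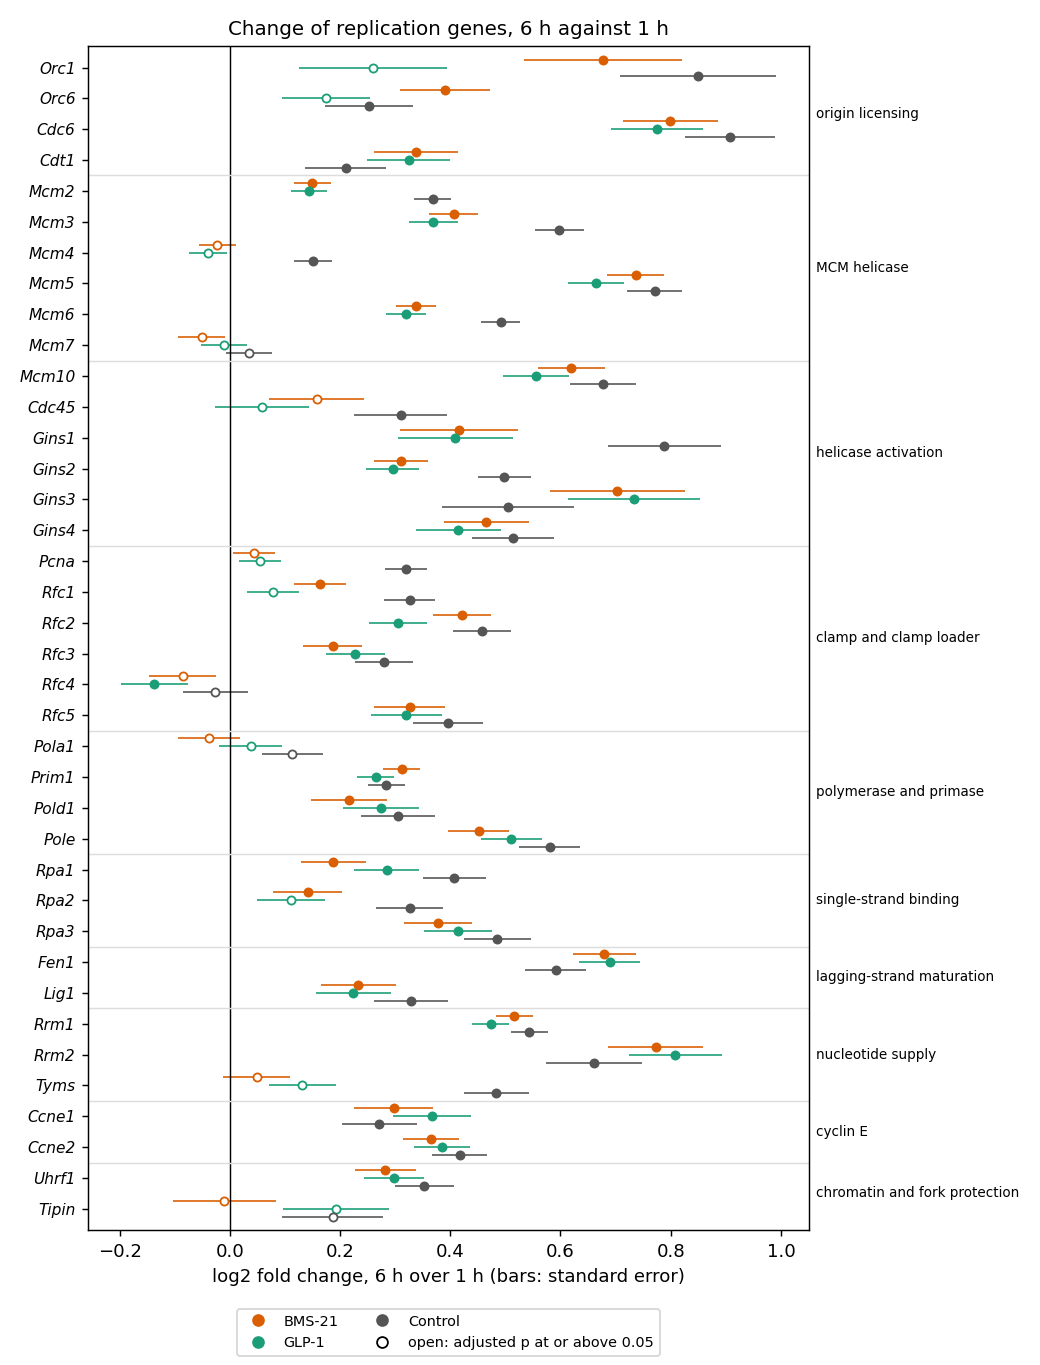
Log2 fold change of 6 h over 1 h for the 38 replication genes, ordered by role, in BMS-21 (orange), GLP-1 (green) and Control cells (grey), from edgeR on 4 libraries a group. Bars are standard errors and open points had an adjusted p at or above 0.05. Nearly all points lie right of 0, and the Control point is the rightmost of the 3 for Mcm2, Mcm3, Mcm6, Pcna, Tyms and Gins1.

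Related genes outside the 38 were counted from lists drawn up by function. The lists were chosen with earlier results of these data known, so their counts are not an independent check. Of 25 other fork, clamp and polymerase genes tested, 11 fell (44%) and 0 rose with BMS-21 at 6 h (median -0.16). GLP-1 gave 10 that fell (40%) and 0 that rose (median -0.12). Of all genes, 16.8% fell with BMS-21 and 15.6% with GLP-1. Over time in Control, 18 of the 25 rose and 3 fell (72% and 12%), against 26% and 26.9% of all genes. Chaf1b, a chromatin assembly factor subunit, fell by 0.24 ± 0.07 with BMS-21 and by 0.29 ± 0.069 with GLP-1 (limma adjusted p = 0.00961 and 0.0025). Of 28 other nucleotide supply genes, 6 fell and 2 rose with BMS-21 (21.4% and 7.14%, against 16.8% of all genes in each direction) and 5 fell and 4 rose with GLP-1 (17.9% and 14.3%, against 15.6% and 16.2%). The list medians were -0.049 and -0.025, and the shares that fell were near those of all genes. Shmt1, which feeds the folate cycle, fell by 0.56 ± 0.047 with BMS-21 and by 0.39 ± 0.044 with GLP-1, and Dck, the deoxycytidine kinase of the salvage route, fell by 0.39 ± 0.054 and 0.35 ± 0.045 with the same agents. Dhodh, an enzyme of pyrimidine synthesis, rose by 0.58 ± 0.13 with BMS-21 and by 0.55 ± 0.13 with GLP-1. Of 20 other origin and licensing genes, 3 fell and 1 rose with BMS-21 and 3 fell and 1 rose with GLP-1 at 6 h (15% and 5% with each), which is no more than the shares of all genes. Dtl, which directs Cdt1 to degradation, fell by 0.25 ± 0.073 with BMS-21 and by 0.32 ± 0.073 with GLP-1 (limma adjusted p = 0.0105 and 0.00172), while Orc2, an origin recognition subunit, rose by 0.18 ± 0.06 with BMS-21.

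Of 29 E2F, RB and G1/S regulators tested at 6 h, 6 fell and 4 rose with BMS-21 (20.7% and 13.8%, against 16.8% of all genes in each direction), and 5 fell and 4 rose with GLP-1 (17.2% and 13.8%, against 15.6% and 16.2%). These shares were near those of all genes, so the genes named next are single results and not a change of the list. E2f1, the activator E2F, had 38.8, 36.0, 32.6 and 34.1 CPM with BMS-21, 33.9, 35.8, 33.7 and 32.1 CPM with GLP-1 and 42.7, 45.9, 41.1 and 44.1 CPM in Control at 6 h. Every treated library was below Control, with a log2 fold change of -0.30 ± 0.061 for BMS-21 (limma adjusted p = 0.000536) and -0.36 ± 0.055 for GLP-1 (limma adjusted p = 3.58e-05). At 1 h E2f1 was at -0.009 ± 0.059 with BMS-21 and 0.063 ± 0.063 with GLP-1, and its shift between the times was -0.29 ± 0.087 with BMS-21 (edgeR adjusted p = 0.0137) and -0.43 ± 0.087 with GLP-1 (edgeR adjusted p = 0.000366). Ccnd1, cyclin D1, which starts RB phosphorylation in G1, had 52.8, 49.9, 45.5 and 51.3 CPM with BMS-21, 49.5, 49.9, 44.8 and 46.5 CPM with GLP-1 and 8.00, 6.37, 9.26 and 8.97 CPM in Control at 6 h. It rose by 2.61 ± 0.096 with BMS-21 and by 2.55 ± 0.095 with GLP-1 (limma adjusted p = 5.44e-14 and 6.62e-14), opposite in direction to the replication genes that fell. Ccnd3 rose by 0.88 ± 0.053 with BMS-21 and by 0.77 ± 0.05 with GLP-1, Ccnd2 fell by 0.49 ± 0.035 and 0.35 ± 0.033, and Rb1, which restrains E2F, rose by 0.39 ± 0.054 and 0.31 ± 0.056. Mycn fell by 1.53 ± 0.14 with BMS-21 and by 1.43 ± 0.12 with GLP-1, and Mybl2, itself an E2F target, fell by 0.32 ± 0.052 and 0.29 ± 0.059.

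Genes of later cell-cycle phases also changed over time. Of 21 G2 and mitosis genes tested, 20 were called higher at 6 h than at 1 h with BMS-21 (median log2 fold change 0.64), 20 with GLP-1 (0.69) and 21 in Control (0.72). Over all genes, 30.1%, 29.2% and 26% rose in those groups. At 6 h, 5 of the 21 fell and 0 rose with BMS-21 (23.8%, against 16.8% of all genes that fell), and 6 fell and 0 rose with GLP-1 (28.6%, against 15.6%). Cenpf, a kinetochore gene, fell by 0.34 ± 0.066 with BMS-21 and by 0.24 ± 0.055 with GLP-1 (limma adjusted p = 0.000413 and 0.00227). Of 24 fork checkpoint and repair genes, 7 fell and 3 rose with BMS-21 (29.2% and 12.5%) at 6 h. With GLP-1, 8 fell and 3 rose (33.3% and 12.5%). The shares of all genes were 16.8% in each direction with BMS-21, and 15.6% that fell and 16.2% that rose with GLP-1. Chek2, a checkpoint kinase gene, fell by 0.39 ± 0.1 with BMS-21 and by 0.40 ± 0.086 with GLP-1. At 1 h, 0 of these 21 mitosis genes, 25 fork genes, 20 origin genes and 28 nucleotide supply genes passed with either agent. There, 4 of 30 E2F, RB and G1/S regulators rose and 2 fell with each (13.3% and 6.67%), and 1 checkpoint gene, Gadd45a, fell with each. Over all genes at 1 h, 3.54% rose and 2.37% fell with BMS-21, and 4.17% rose and 2.41% fell with GLP-1. Markers of other cell types also moved at 6 h. Summed over its 5 markers, the acinar list stood at 13.3 to 15.4 CPM with BMS-21, 13.5 to 15.9 CPM with GLP-1 and 7.501 to 9.09 CPM in Control, with Cela1 at 0. The 5 duct markers summed to 49.3 to 59.7 CPM with BMS-21, 56.3 to 63.8 CPM with GLP-1 and 62.0 to 74.3 CPM in Control. The 7 markers of the other islet cell types summed to 10.9 to 15.8 CPM with BMS-21, 11.4 to 11.97 CPM with GLP-1 and 9.42 to 11.5 CPM in Control, with Irx2 at 0 in each group. Krt7 fell with both agents and Gcg rose with BMS-21, and the part of these markers in the changes of the replication genes was not tested.

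In the authors' deposited tables for 6 h, 13 of the 38 genes were lower with BMS-21 than in Control at an adjusted p under 0.05 and 8 were lower with GLP-1, and 0 were higher with either. In the authors' deposited tables for 1 h, Pcna passed with both agents and Mcm7 with BMS-21. The authors' deposited tables of the 2 agents against each other had 0 of the 38 passing at 6 h, where 12 of them had no adjusted p, and 0 at 1 h.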

How the data were processed

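mRNA libraries (TruSeq RNA v2, which does not mark the strand, per the labels' protocols) of INS-1 cells were measured in 6 groups of 4. The authors deposited 6 tables, each of 2 groups, with normalised read counts (a signal, read counts divided by 1 size factor per library), log2 fold changes, Wald statistics (a score) and p-values. TopHat2 2.0.12, Bowtie2 2.2.3.0, SAMtools 0.1.19.0, Subread, DESeq and DESeq2 1.6.3 and the build Rnor_5.0 are named, without roles, in the submitters' processing notes, and the annotation release is not given in the sources used here. Of 26404 identifiers, 18465 carried a symbol, and Tipin, whose symbol is absent from 2 tables, was matched by its identifier. The 38 genes and the other lists were chosen with earlier results of these data known.

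Every deposited value was a whole multiple of 1 step per library (100% of values, tolerance 0.001 reads), and the recovered reads of each of 24 libraries did not differ between its 2 tables. Comparisons within 1 table used limma 3.58.1 (trend, robust) on log2(normalised count + 1) with a mean of at least 10, in R 4.3.3. Comparisons across times used edgeR 4.0.16 (TMM, filterByExpr, quasi-likelihood, robust) on the recovered reads of all 24 libraries, with a standard error computed as the size of the log2 fold change divided by the square root of F. All p-values were adjusted by Benjamini-Hochberg over all genes tested, with a threshold of 0.05. Levels in CPM come from the recovered reads, and limits such as a floor of 3 reads cover counting error only. Levels were not compared between genes, since gene lengths were not used here. Same-numbered libraries of different groups correlated in their deviations from the group means in all 36 pairs (0.125 to 0.406 over 10799 genes). Each comparison was therefore also fitted with a replicate block. Differently numbered libraries were not correlated, so whether libraries pair by number or only by the split of replicates described next was not tested. On the first component of those deviations (25.8% of variance), replicates 1 and 2 lay at -6.48 to -3.88 and replicates 3 and 4 at 3.51 to 7.63. The labels give no batch behind these numbers. Alternatives were DESeq2 1.42.0, edgeR for the comparisons within a table, limma for those across times, other scalings, filters and pseudocounts, pairs of replicates and leaving out each library. Values in every library were printed for the 12 genes with the smallest adjusted p in the comparisons with Control and for 9 genes chosen by role. From each other list, up to 5 genes in each direction could be named, and E2f1 and Ccnd1 in any case.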

Additional observations from a re-analysis of the deposited data

Results flagged for a closer look

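In 8 of 228 combinations of a gene and a group, 1 of the 4 libraries stood apart from the others by Dixon's criterion for 4 values at the 95% level, where chance alone gives about 5%. The library of BMS-21 replicate 4 at 1 h was the lowest in 3 of them, with Rpa2 at 30.2 CPM (others 30.8 to 31.0), Ccne1 at 18.8 CPM (others 23.1 to 23.8) and Uhrf1 at 36.3 CPM (others 42.0 to 42.7). BMS-21 replicate 3 at 6 h was low for Cdc45, at 22.7 CPM (others 29.7 to 30.6). BMS-21 replicate 2 at 1 h was high for Gins2, at 66.2 CPM (others 59.0 to 59.8). GLP-1 replicate 2 at 6 h was high for Mcm3, at 109.8 CPM (others 99.4 to 99.8). Control replicate 4 at 6 h was high for Pcna, at 353.6 CPM (others 322.9 to 324.6), and Control replicate 2 at 1 h was high for Rfc4, at 63.0 CPM (others 58.1 to 59.0).

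The response to an agent differed between 6 h and 1 h in a direct edgeR test for 7 genes with BMS-21 and 9 with GLP-1, each shift being the log2 fold change over Control at 6 h minus that at 1 h. With BMS-21 the shifts were -0.43 for Tyms, -0.28 for Pcna, -0.22 for Mcm2, -0.19 for Mcm3, -0.19 for Gins2, -0.17 for Mcm4 and -0.15 for Mcm6. With GLP-1 they were -0.59 for Orc1, -0.35 for Tyms, -0.27 for Pcna, -0.25 for Rfc1, -0.23 for Mcm3, -0.22 for Mcm2, -0.20 for Gins2, -0.19 for Mcm4 and -0.17 for Mcm6. Both sets of shifts use the same Control libraries. The Gins2 shift was lost under 14 of 24 alternatives with BMS-21 and 8 of 24 with GLP-1, and the Orc1 shift with GLP-1 under 10 of 24.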

How the results depend on the processing

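No result changed direction past its threshold under any alternative run. Of the counts and medians over the 38 genes, 395 alternative values stayed close to the reported one and 37 moved, and of the single-gene results 7907 kept their side of the threshold, 123 passed it and 178 lost it. Scaling by library totals gave 1 call with BMS-21 at 1 h, 4 with GLP-1 at 1 h, 27 with BMS-21 at 6 h and 24 with GLP-1 at 6 h, with medians of -0.19 for BMS-21 at 6 h, -0.16 for GLP-1 at 6 h and -0.028 for GLP-1 at 1 h. It moved the median of all genes down by 0.03 to 0.06. DESeq2 called 1 gene with GLP-1 at 1 h and 8 with GLP-1 at 6 h. With no filter on low values 1 gene passed with BMS-21 at 1 h. The replicate block gave 4 calls with each agent at 1 h, 22 with each at 6 h, 11 shifts with BMS-21 and 13 with GLP-1. It gave 0 differences between the agents at either time. The 6 h calls over all genes also increased under the block, to 2504 lower and 2504 higher of 12640 with BMS-21. For GLP-1 they increased to 2615 lower and 2716 higher of 12641. Over time the block gave 31 calls with BMS-21, 30 with GLP-1 and 36 in Control. Over all 13114 genes it called 4244 higher and 4365 lower with BMS-21, 4131 and 4231 with GLP-1, and 3808 and 3895 in Control. Replicates 1 and 2 alone gave 1 call with BMS-21 at 1 h, a median of -0.083 with BMS-21 at 6 h, a median of 0.27 over time with GLP-1 and 3 shifts with BMS-21. Replicates 3 and 4 alone gave 0 calls with either agent at 1 h, a median of -0.18 with BMS-21 at 6 h, a median of 0.35 over time with GLP-1 and 5 shifts with GLP-1. Leaving out 1 library gave 0 to 2 calls with BMS-21 and 1 to 4 with GLP-1 at 1 h, 13 to 17 with BMS-21 and 9 to 15 with GLP-1 at 6 h, 4 to 8 shifts with BMS-21 and 7 to 10 with GLP-1, and a median over time with GLP-1 of 0.27 to 0.31. The causes were not tested. The calls of Mcm2, Mcm3, Mcm6, Mcm7, Gins2, Rfc1 and Tyms at 6 h held with both agents under all 20 alternatives. Depth limited Orc1 and Gins3 most.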
